A study of Mus musculus with 3 samples.

Results

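NR2F2 peaks were examined at 10 genes of the circadian clock: Clock, Arntl, Per1, Per2, Per3, Cry1, Cry2, Bhlhe40, Bhlhe41 and Dbp. A peak was assigned to a clock gene when the gene had the nearest transcription start site (TSS) in the curated RefSeq models of GRCm38 (mm10), or when the peak lay within 50 kb of that gene's TSS. By this rule 12 of the 10069 peaks belonged to 7 of the 10 genes. For 8 of the 12 peaks the clock gene had the nearest TSS, and the other 4 lay within 50 kb of a clock gene but closer to the start of another gene.

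The assay was ChIP-seq, in which chromatin bound by a protein is pulled down with an antibody and sequenced, here NR2F2, a nuclear receptor also called COUP-TFII. The chromatin came from testes of E14.5 CD-1 embryos, freed of the mesonephros and pooled from 30 testes, so it held all testicular cell types. All groups shared this stock and stage, and no genetic change or treatment is named for them. There were 2 independent NR2F2 ChIP libraries (replicates) and 1 input library, which is sheared chromatin taken before the pull-down. The study calls the ChIP libraries biological replicates but does not say whether each had its own pool of testes. The counts hold no expression values, so the tissue label could not be checked against marker genes.

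Each library was counted over the same peaks of 300 bp. The libraries held 73251 (input), 426784 (replicate 1) and 364261 (replicate 2) counts at peaks, with medians of 7, 37 and 31 per peak. The depth over the whole genome is not known for these libraries, so a ratio of ChIP to input holds only up to the unknown factor between their depths. The peaks had been called on the merged ChIP reads that were counted here, so a ChIP count above the input was built into their choice.

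The mammalian clock is a feedback loop of transcription. CLOCK and ARNTL (BMAL1) bind the E-box CACGTG together and activate the Per and Cry genes, whose proteins then repress CLOCK and ARNTL. BHLHE40 and BHLHE41 (DEC1 and DEC2) are repressors that also bind E-boxes, and DBP carries the rhythm to output genes through D-box elements. The nuclear receptors of the ROR and REV-ERB families act on Arntl through elements built on AGGTCA, the core letters that NR2F2 also recognises.

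Sequences of 7 of the 12 peaks are printed to show which of these letters they held. They are from RefSeq GRCm38 (the mm10 assembly), plus strand, 5′ to 3′, and bases of untranslated exons are left out, except in the Clock window of 30 bases, which lies in such an exon of predicted Clock models. Capitals mark every match to AGGTCA, which reads as TGACCT where it lies on the minus strand. They also mark the longer form AGAGGTCA, the E-box CACGTG and the cyclic AMP response element TGACGTCA.
Clock intron peak, chr5:76303510-76303809: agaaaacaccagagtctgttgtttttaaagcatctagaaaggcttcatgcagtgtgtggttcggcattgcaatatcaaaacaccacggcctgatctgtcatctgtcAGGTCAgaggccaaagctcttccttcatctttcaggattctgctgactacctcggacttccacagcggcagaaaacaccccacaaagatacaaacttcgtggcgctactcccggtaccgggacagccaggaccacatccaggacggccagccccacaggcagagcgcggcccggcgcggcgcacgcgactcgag
Clock upstream peak, a window of 30 bases, chr5:76305274-76305303: ggacgacccaagTGACCTcggctgtagcca
Arntl upstream peak, chr7:113181982-113182281: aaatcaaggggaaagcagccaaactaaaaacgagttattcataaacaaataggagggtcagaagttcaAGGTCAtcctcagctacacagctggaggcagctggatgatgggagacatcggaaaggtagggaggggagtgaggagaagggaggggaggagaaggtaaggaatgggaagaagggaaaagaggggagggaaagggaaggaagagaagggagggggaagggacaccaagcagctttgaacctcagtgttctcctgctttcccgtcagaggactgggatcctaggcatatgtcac
Peak in the Hes6 intron next to Per2, chr1:91413463-91413762: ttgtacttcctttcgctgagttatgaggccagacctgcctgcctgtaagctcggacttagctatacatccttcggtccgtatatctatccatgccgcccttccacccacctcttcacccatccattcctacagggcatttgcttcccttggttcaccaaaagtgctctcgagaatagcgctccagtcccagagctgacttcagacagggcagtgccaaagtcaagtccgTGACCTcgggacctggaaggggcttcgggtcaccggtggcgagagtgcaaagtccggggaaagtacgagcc
Peak over the Vamp3 start next to Per3, 57 bases outside UTRs, chr4:151057954-151058010: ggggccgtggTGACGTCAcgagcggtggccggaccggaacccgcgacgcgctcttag
Cry1 promoter peak, chr10:85185061-85185360: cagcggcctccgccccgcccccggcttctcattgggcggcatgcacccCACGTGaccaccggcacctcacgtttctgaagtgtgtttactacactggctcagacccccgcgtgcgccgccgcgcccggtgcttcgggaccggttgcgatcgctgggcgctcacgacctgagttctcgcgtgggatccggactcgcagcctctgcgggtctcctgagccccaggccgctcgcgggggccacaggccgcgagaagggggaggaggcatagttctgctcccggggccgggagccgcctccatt
Cry1 distal peak, chr10:85205389-85205688: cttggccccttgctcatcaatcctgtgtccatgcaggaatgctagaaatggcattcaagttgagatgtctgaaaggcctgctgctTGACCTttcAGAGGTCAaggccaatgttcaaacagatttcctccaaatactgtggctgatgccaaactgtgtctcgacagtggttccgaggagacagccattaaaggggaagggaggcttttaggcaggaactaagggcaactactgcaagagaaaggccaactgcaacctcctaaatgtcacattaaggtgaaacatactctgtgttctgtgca
AGGTCA was thus present in both Clock peaks, the Arntl peak, the peak in the Hes6 intron and the distal Cry1 peak.

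**Figure D1:**
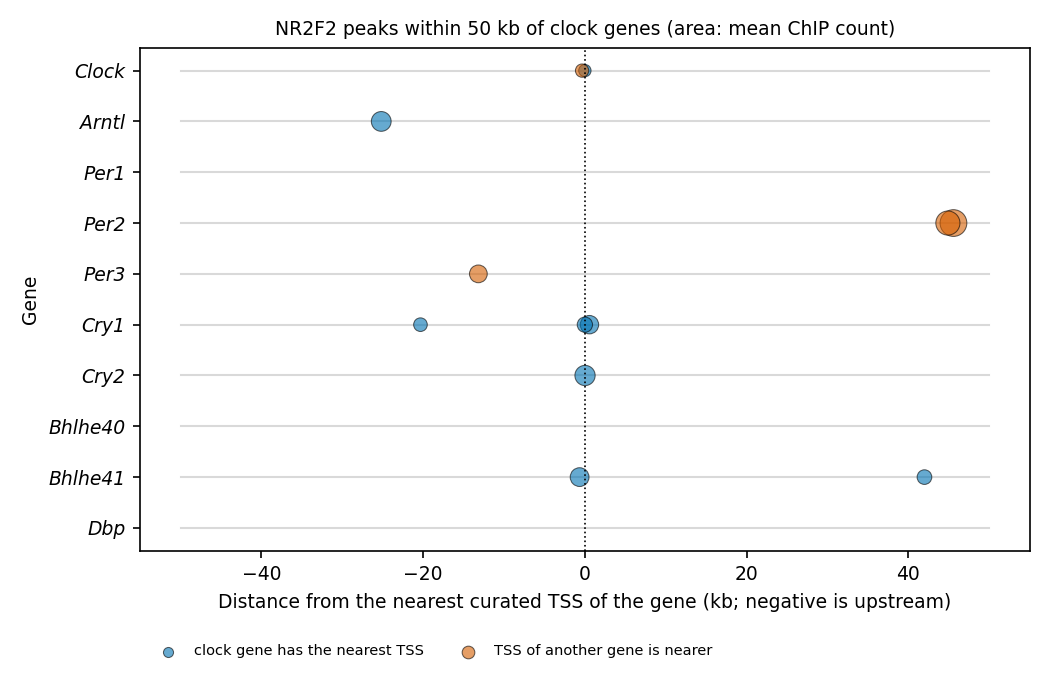
Position of the 12 peaks (circles, area proportional to the mean ChIP count) from the nearest curated TSS of each clock gene, in kb, with upstream negative. Blue circles have the clock gene as nearest, orange circles lie nearer to another gene, and Per1, Bhlhe40 and Dbp have no circle.

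Positions fell into 3 kinds. At 4 genes (Clock, Cry1, Cry2 and Bhlhe41), 6 peaks lay within 1 kb of the gene's own TSS. A further 3 peaks were distal, outside any curated gene, with a clock gene (Arntl, Cry1 or Bhlhe41) as nearest. The remaining 3 sat at the starts of neighbouring genes, Hes6 near Per2 and Vamp3 near Per3. The share of clock genes with a peak, 7 of 10, compares with 56.6% of 26180 curated genes by the same rule. With the nearest TSS alone, 5 of 10 had a peak, beside 30.8% of all genes. In the position classes of the study, 6 of the 12 were TSS proximal (overlapping a TSS or up to 1 kb upstream), 3 gene body, 0 upstream (up to 10 kb) and 3 intergenic. Over all peaks these classes held 36.0%, 34.0%, 4.34% and 25.7%.

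The activators come first. Clock encodes the histone acetyltransferase and bHLH-PAS partner of ARNTL, and lies on the minus strand at chr5:76209868-76304792 with 3 curated TSSs. One Clock peak lay in an intron, 8 bp upstream of the innermost TSS and 739 and 983 bp downstream of the others. It held 3 counts in the input, 15 in replicate 1 and 17 in replicate 2. Its mean ChIP count was higher than that of only 3.63% of all peaks, so it was the weakest of the 12 by ChIP count. The other Clock peak lay 352 bp upstream of the outermost TSS, and the nearest start was that of the non-coding gene Gm7467, in whose exon its midpoint fell. It held 3 counts in the input, 16 in replicate 1 and 21 in replicate 2. The pair was 1334 bp apart, and the ChIP counts of both peaks overlapped.

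For the upstream Clock peak the mean ChIP count was 18.5 ± 3.54 (SD, n = 2), 6.17 times the input. With 3 input counts, the exact 95% interval of this ratio ran from 1.95 to 31.3. Intervals of ratios treat the libraries as equally deep and cover counting error only. In the quasi-likelihood test of edgeR with libraries taken as equally deep, the log2 ratio was 2.58 ± 0.45 (SE), with an adjusted p of 0.0326. Set against the typical peak, by scaling the libraries on their counts at all peaks, the log2 difference was 0.31 ± 0.90 (SE), with an edgeR adjusted p of 0.960. The difference from the typical peak was smaller than its standard error.

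Arntl encodes the obligate partner of CLOCK and lies on the plus strand at chr7:113207465-113314126. Its only peak was 25184 bp upstream of the nearer of its 2 TSSs, outside any curated gene. The input held 5 counts, replicate 1 held 40 and replicate 2 held 42. Both ChIP counts were at least 8 times the input count, and the replicates were close to each other. The mean was 41.0 ± 1.41 (SD, n = 2), higher than 64.7% of all peaks, and the ratio to input was 8.20 (exact 95% interval 3.38 to 25.9). At equal depth the log2 ratio was 3.004 ± 0.32 (SE; edgeR adjusted p = 0.0311). Against the typical peak it was higher by a log2 value of 0.72 ± 0.64 (SE), which did not pass the test (edgeR adjusted p = 0.812). The single AGGTCA of this peak, printed above, lay on the plus strand.

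The Period genes encode the PAS-domain repressors of the loop. Per1, on the plus strand at chr11:69098949-69109960, had no peak by the rule. The nearest peak lay 53077 bp upstream, just outside the limit, over the start of Aurkb (chr11:69045573-69045872), which encodes a mitotic kinase. That peak held 7 counts in the input, 52 in replicate 1 and 29 in replicate 2.

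Per2 lies on the minus strand at chr1:91415982-91459328, and its 2 peaks were beyond its 3′ end, 44877 and 45566 bp downstream of its TSS. Both belonged by position to Hes6, which encodes a bHLH factor of the Hes family. The farther one, in the intron of Hes6 and 241 bp upstream of its inner TSS, held 11 counts in the input, 85 in replicate 1 and 65 in replicate 2. The nearer one lay 114 bp upstream of the outer Hes6 TSS and 1531 bp past the 3′ end of Per2, and held 9, 69 and 53 counts in the same order. The pair was 389 bp apart, and replicate 1 was above replicate 2 at both. These were the 2 highest ChIP counts among the 12 peaks, at the 94.1 and 87.9 percentiles of all peaks. For the farther peak the mean was 75.0 ± 14.1 (SD, n = 2), 6.82 times the input (exact 95% interval 3.70 to 13.95). The equal-depth log2 ratio was 2.76 ± 0.40 (SE; edgeR adjusted p = 0.0311), and the log2 difference from the typical peak was 0.45 ± 0.45 (SE; edgeR adjusted p = 0.844).

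Per3 lies on the minus strand at chr4:151003655-151044665. The peak assigned to it was 13175 bp upstream, at chr4:151057840-151058139, and overlapped the start of Vamp3, which encodes a vesicle SNARE protein. The input held 7 counts, replicate 1 held 35 and replicate 2 held 31. This placed it near the middle of all peaks, with a mean ChIP count of 33.0 ± 2.83 (SD, n = 2) that was above 47.5% of them. The ratio to input was 4.71 (exact 95% interval 2.17 to 12.2). Its equal-depth log2 ratio was 2.22 ± 0.32 (SE; edgeR adjusted p = 0.0311), and its log2 difference from the typical peak was -0.08 ± 0.60 (SE; edgeR adjusted p = 0.990). It was the only one of the 12 peaks to hold TGACGTCA, the element of the CREB family, which is present in 1.62% of all peaks and 3.45% of TSS proximal peaks. No peak near a Period gene had that gene's own TSS as its nearest.

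Cryptochromes are the other repressors of the loop, and Cry1 had 3 peaks, the most among the 10 genes, while Ciart, a clock gene outside these 10, had 4 by the same rule. Cry1 lies on the minus strand at chr10:85131700-85185054. The peak over its promoter, 7 bp upstream of the TSS, held 2 counts in the input, 34 in replicate 1 and 15 in replicate 2. A second peak, 565 bp away, began 559 bp downstream of the TSS (chr10:85184196-85184495), had its midpoint in coding sequence, and held 12, 37 and 34 counts in that order. The distal peak, 20335 bp upstream and outside any gene, held 6, 20 and 19 counts. The replicates were close at the last 2 peaks and apart at the promoter peak, where replicate 1 was 2.27 times replicate 2.

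The downstream peak had the most ChIP counts of the Cry1 peaks, with a mean of 35.5 ± 2.12 (SD, n = 2). It also had a high input count, so that its ratio of 2.96 (exact 95% interval 1.59 to 5.99) was the lowest of the 12 by the mean of both replicates, though not in replicate 2, where Cry2 was lower. The equal-depth log2 ratio was 1.55 ± 0.27 (SE; edgeR adjusted p = 0.0326), and the log2 difference from the typical peak was -0.75 ± 0.50 (SE; edgeR adjusted p = 0.679). The promoter peak, singled out after its values were seen, had the highest mean ratio of the 12, 12.3, on 2 input counts (exact 95% interval 3.22 to 104). That rank rested on replicate 1, since the ratio was 17.0 in replicate 1 and 7.50 in replicate 2, below the 8.40 of the Arntl peak in replicate 2. It was also the only one of the 12 that did not pass the equal-depth test, with a log2 ratio of 3.53 ± 1.12 (SE) and an edgeR adjusted p of 0.0716. Its log2 difference from the typical peak, 1.27 ± 0.93 (SE), did not pass either (edgeR adjusted p = 0.721). The distal peak had a ratio of 3.25 (exact 95% interval 1.37 to 9.39) and passed at equal depth, with a log2 ratio of 1.68 ± 0.28 (SE; edgeR adjusted p = 0.0318).

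The letters of the Cry1 peaks differed. The promoter peak held CACGTG, 55 bp upstream of the TSS, and no AGGTCA. The distal peak held AGGTCA once on each strand with 5 bases between them, and the plus-strand copy was part of AGAGGTCA, the longer form that NR2F2 recognises. That form or its variant AGGGGTCA was in 1 of the 12 peaks, beside 10.5% of all peaks.

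Cry2 had a single peak, 12 bp downstream of its TSS, with the midpoint in the first coding exon (chr2:92433758-92434057, gene on the minus strand). The input held 14 counts, replicate 1 held 48 and replicate 2 held 38. The mean ChIP count, 43.0 ± 7.07 (SD, n = 2), was above that of 68.2% of all peaks, while the input count was the highest of the 12. The ratio was accordingly low, at 3.07 (exact 95% interval 1.74 to 5.85). At equal depth the log2 ratio was 1.61 ± 0.34 (SE; edgeR adjusted p = 0.0389), and against the typical peak the log2 difference was -0.70 ± 0.47 (SE; edgeR adjusted p = 0.681).

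Of the bHLH repressors, Bhlhe40 (chr6:108660629-108666925) had no peak by the rule. The closest lay 89846 bp upstream (chr6:108570484-108570783) and held 6 counts in the input, 44 in replicate 1 and 45 in replicate 2. Bhlhe41, on the minus strand at chr6:145858243-145865420, had 2 peaks. The promoter-side peak, 656 bp upstream (chr6:145866076-145866375), held 10 counts in the input, 36 in replicate 1 and 38 in replicate 2. The distal peak, 41981 bp downstream of the TSS and outside any gene, held 4, 24 and 21 counts in that order. ChIP counts of the promoter-side peak were above those of the distal peak in both replicates, but so was its input count.

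The promoter-side peak had a mean of 37.0 ± 1.41 (SD, n = 2), 3.70 times the input (exact 95% interval 1.90 to 8.03). Its log2 ratio was 1.87 ± 0.28 (SE; edgeR adjusted p = 0.0311) at equal depth, and its difference from the typical peak was -0.43 ± 0.53 (SE; edgeR adjusted p = 0.894). The distal peak had a ratio of 5.63 (exact 95% interval 2.05 to 21.5). These intervals overlapped, and the difference between the peaks was not tested.

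Dbp, which encodes the PAR bZIP activator of the output, lies on the plus strand at chr7:45705247-45710203 and had no peak by the rule. The closest peak was 137004 bp away (chr7:45567944-45568243), with Bcat2, which encodes a mitochondrial aminotransferase of branched-chain amino acids, as nearest gene. It held 6 counts in the input, 29 in replicate 1 and 34 in replicate 2.

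**Figure D2:**
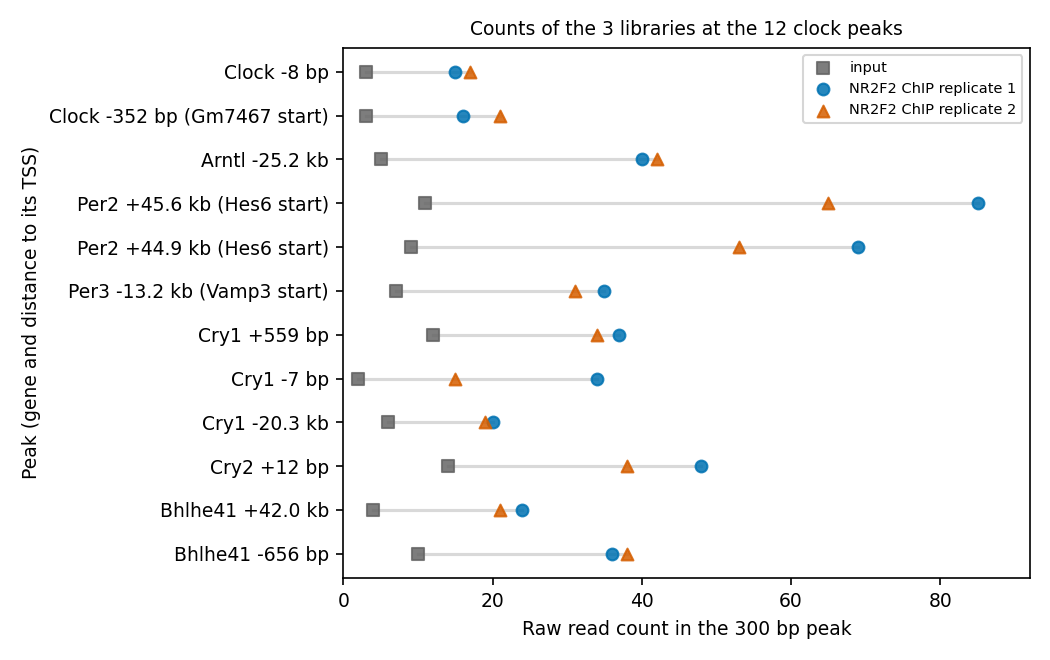
Counts of the 12 peaks in the input and in each ChIP replicate (squares, circles and triangles, in reads per peak), with the gene that has the nearer start in brackets. Every ChIP symbol lies to the right of the input symbol of its peak, and the 2 peaks near Per2 reach the highest counts, 85 and 69 in replicate 1.

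Over the 12 peaks the input count ranged from 2 to 14 with a median of 6.5, beside a median of 7 over all peaks. Replicate 1 ranged from 15 to 85 with a median of 35.5, beside 37, and replicate 2 from 15 to 65 with a median of 32.5, beside 31. The mean ChIP count varied 4.69-fold among the 12. The ChIP count exceeded the input count in both replicates at 12 of 12 peaks, as it did at 99.9% of all peaks. At equal depth, 11 of 12 passed the edgeR test above input, where 80.7% of all peaks did. This count depended on the unknown depths and on the tool, since 0 of 12 passed when the ChIP libraries were set 2 times deeper than the input, and 5 of 12 passed with DESeq2 at equal depth. Both shares describe peaks that were chosen on their ChIP reads.

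Measured against the typical peak, none of the 12 passed. The edgeR count above the typical ratio was 0 of 12, beside 1.53% of all peaks, and the count below was 0 of 12, beside 0.0497%. At an unadjusted p under 0.05 the count was also 0 of 12, beside 10.4% of all peaks. DESeq2 called 0, but gave an adjusted p for only 1 of the 12 peaks. The log2 difference was above 0 at 7 peaks and below 0 at 5, from -0.75 at the downstream Cry1 peak to 1.27 at the Cry1 promoter peak. With 0.5 added to each count, the median log2 ratio of ChIP to input was 2.30 for the clock peaks and 2.24 for all peaks. The difference in medians was 0.05 ± 0.19 (SD over the 2 replicates), smaller than the spread between the replicates. It was -0.11 in replicate 1 and 0.15 in replicate 2.

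**Figure D3:**
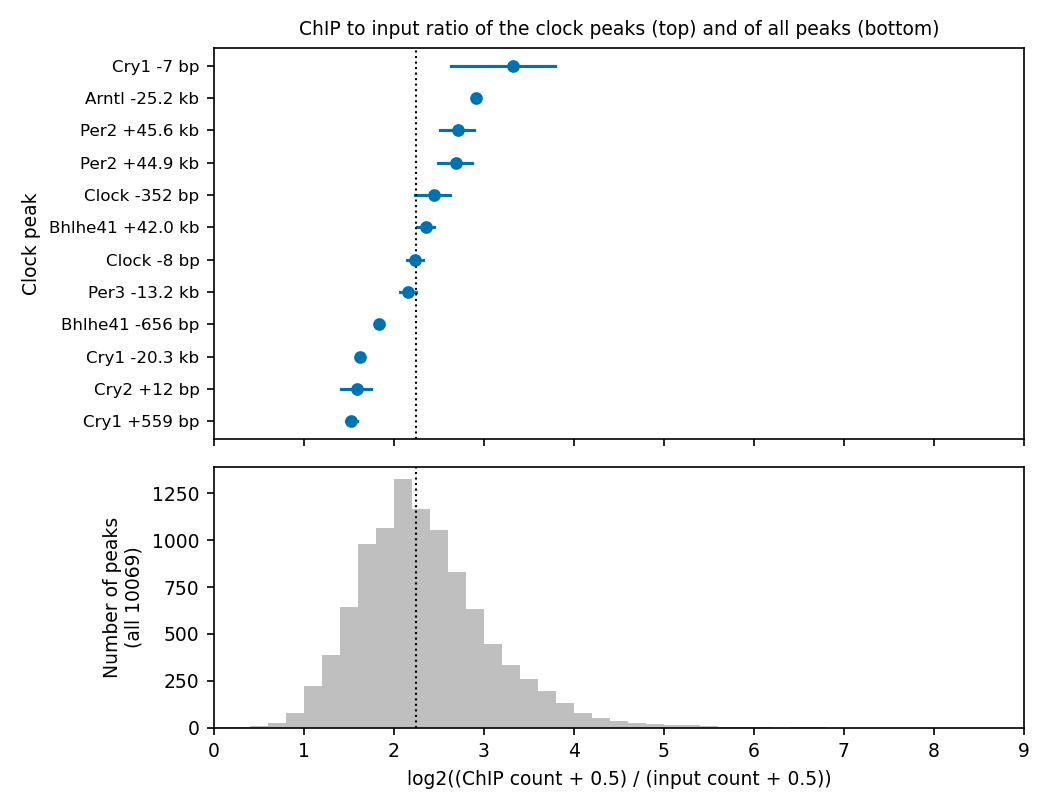
Upper panel, log2 ratio of ChIP to input (0.5 added to each count) of the 12 clock peaks, ordered by value, with points for the mean ChIP count and lines joining the values of the 2 replicates. Lower panel, the same ratio for all 10069 peaks as a histogram, with a dotted line at their median of 2.24, above which 6 of the 12 points lie.

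The replicates were compared peak by peak with an exact two-sided binomial test, given that replicate 1 held 53.95% of all ChIP counts at peaks. None of the 12 differed after adjustment, beside 0.0993% of all peaks, and 1 of 12 had an unadjusted p under 0.05, beside 8.83%. That peak was the Cry1 promoter peak (34 against 15 counts, exact p = 0.0317, adjusted p = 0.508). Replicate 1 was higher at 8 of the 12 peaks, beside 6975 of all 10069, and the ratio of replicate 1 to replicate 2 ran from 0.762 to 2.27, beside 1.17 for the totals. At 10 of 12 peaks it lay within 1.5-fold of the ratio of the totals. This test compares libraries and covers counting error only.

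**Figure D4:**
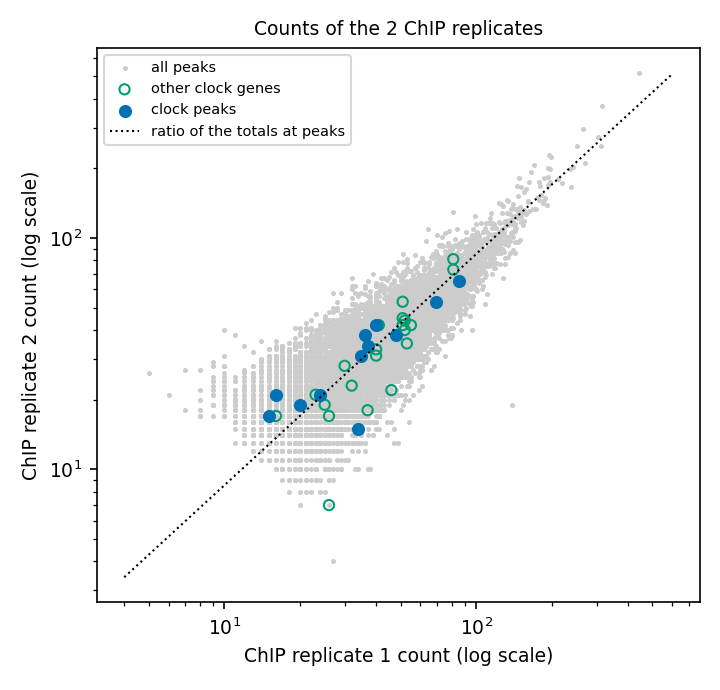
Counts of ChIP replicate 1 (x) against replicate 2 (y), in reads per peak, on log scales, for the 12 clock peaks (filled blue), the 21 peaks of further clock genes (open green) and all peaks (grey), with a dotted line at the ratio of the totals. The Cry1 promoter peak, at 34 and 15 counts, lies farthest from the dotted line among the 12.

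The CpG ratio, but not GC content, separated peaks near a clock gene's TSS from distal ones. In the 6 peaks within 1 kb of a clock gene's TSS, GC content ranged from 55.3% to 70.7%, and the observed over expected CpG ratio from 0.560 to 1.09. The 3 distal peaks with a clock gene as nearest had a GC content of 47.7% to 58.3% and a CpG ratio of 0.118 to 0.202. The ranges of the CpG ratio did not overlap between these kinds of peak. Over all peaks the median CpG ratio was 0.797 in the TSS proximal class, 0.670 in the gene body class and 0.242 in the intergenic class. Some of the 6 peaks within 1 kb were classed gene body. Median GC content was 60.0% for the 12 peaks and 60.7% for all peaks.

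Motifs were searched on both strands of each peak, and a match is a description of letters, not evidence of binding. AGGTCA was present in 5 of 12 clock peaks, beside 37.7% of all peaks and 25.6% of TSS proximal peaks. It was in 2 of the 6 peaks within 1 kb, in 2 of the 3 distal ones (Arntl and Cry1) and in 1 of the 3 at neighbouring genes. CACGTG was in 2 of 12, beside 9.38% of all peaks, and its core CANNTG was in 10 of 12, beside 73.3%. The direct repeat element DR1 was searched as exact copies of AGGTCA or GGGTCA spaced by a single base. This exact element was in 0 of 12, beside 2.38% of all peaks, and pairs with a mismatch were not counted. The D-box (TTATGTAA or TTACGTAA) and the ROR element, which contains AGGTCA or GGGTCA, were in 0 of 12 as well, beside 0.417% and 0.745% of all peaks. Longer forms overlap the AGGTCA count. In the central 100 bp of each peak, TGACGTCA remained in 1 of 12 (beside 0.407% of all peaks) and the other counts above 0 were lower, with AGGTCA in 2 of 12 (beside 19.7% of all peaks), CANNTG in 4 (beside 39.6%), and CACGTG and the longer NR2F2 form in 0 (beside 3.23% and 5.19%).

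The annotated promoters (300 bases of RefSeq GRCm38 around a start, most of them before it) were searched in the same way, and 8 of the 10 genes had an entry (not Per2 or Bhlhe40). CACGTG was in the promoters of Bhlhe41, Cry1 and Per1, and in 7.15% of 32851 promoters. AGGTCA was in those of Arntl, Clock and Per1, beside 16.3%. A gene was counted when any of its entries matched, while the shares are of single entries, so the units differ. Arntl, Clock and Per1 had several entries, and no match named here for these genes was in all of them. The ROR element was in the Arntl promoter, beside 0.773%, and the D-box in the Per3 promoter, beside 1.06%. None of the Arntl, Per1 and Per3 promoters lay under a peak.

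A list of 20 further clock genes held the paralogs, the ROR and REV-ERB receptors, the PAR bZIP factors and the kinases and ligases that act on PER and CRY proteins. Of these, 12 had a peak by the same rule (beside 56.6% of all genes) and 10 had the nearest TSS (beside 30.8%), with 21 peaks in all. At equal depth 17 of the 21 passed the edgeR test above input, beside 80.7% of all peaks. Against the typical peak 0 of 21 passed, and 1 had an unadjusted p under 0.05 (beside 10.4% of all peaks), the peak at the start of Tob2 within 50 kb of Tef (7, 81 and 73 counts in input, replicate 1 and replicate 2; log2 difference 1.14 ± 0.51, edgeR adjusted p = 0.376).

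Among the receptors, Nr1d2, which encodes REV-ERB beta, had a peak 289 bp downstream of its TSS (chr14:18238518-18238817) with 5, 55 and 42 counts in input, replicate 1 and replicate 2. Its log2 difference from the typical peak was 0.95 ± 0.63 (SE; edgeR adjusted p = 0.668). Rora, which encodes a ROR receptor, had 6, 32 and 23 counts at a peak within the gene, 197384 bp upstream of its inner TSS. Both receptor peaks had ChIP counts above the input in each replicate, as did 99.9% of all peaks, which were chosen on these ChIP reads. Npas2, the paralog of Clock, had a peak 1180 bp upstream of its TSS with 7, 40 and 33 counts.

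The PAR bZIP genes had Tef with a peak 75 bp downstream of its TSS (17, 52 and 44 counts) and Hlf with a peak 27124 bp upstream (4, 37 and 18 counts). Replicate 1 was above replicate 2 at the Hlf peak, but the difference did not pass the exact binomial test (p = 0.0575, adjusted p = 0.588). The Hlf peak also did not pass above input at equal depth (edgeR adjusted p = 0.0733). Promoter peaks were also found at Btrc (8, 51 and 42 counts), Gsk3b (10, 52 and 40 counts), Timeless (4, 23 and 21 counts, over the TSS) and Sirt1 (5, 16 and 17 counts). BTRC is a ligase subunit acting on PER proteins, GSK3B a kinase and SIRT1 a deacetylase.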

How the data were processed

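According to the study's methods and the submitters' processing notes, the authors trimmed single-end reads (Trim Galore 0.6.7), mapped them to mm10 (Bowtie2), removed duplicates (Picard 1.110), merged the ChIP replicates to call peaks (HOMER 4.11.1), and resized peaks to 300 bp. The authors deposited raw counts of reads per peak for each library. The rule for counting reads in a peak was not given in the sources used here.

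Groups and ChIP replicate numbers came from the sample labels. The input has no replicate number. Counts were fitted across all 10069 peaks and 3 libraries with the quasi-likelihood test of edgeR 4.0.16 (limma 3.58.1, R 4.3.3), with Benjamini-Hochberg adjustment over all peaks and a threshold of 0.05. One fit took the libraries as equally deep, the other used TMM factors on the counts at peaks (difference from the typical peak). The spread comes from the 2 ChIP libraries, and the single input is assumed to vary like them. DESeq2 1.42.0, other depths, filters, gene models and windows were alternatives. The methods were tested on simulated data. Positions, motifs and exact tests used Python 3.11.15, numpy 2.4.6, scipy 1.17.1, pandas 2.3.3 and matplotlib 3.10.9. Distances run from the nearer edge of a peak to the curated TSS. Motif shares exclude peaks on unplaced contigs, which left 10064.

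The genes, lists and tests were chosen with earlier results of these data known. Every clock peak is given with its 3 counts. Full statistics are given for the peak of each gene with the most ChIP counts and for any peak called against the typical peak or between replicates. Of the 20 further clock genes, the strongest peak of each gene that is nearest to a peak is named, except for 1 gene that is not reported here. Sequences are printed for 7 of the 12 clock peaks.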

Additional observations from a re-analysis of the deposited data

How the results depend on the processing

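No paired analysis was possible because the single input library carries no replicate number, so the groups share fewer than 2 numbers. The count of 11 peaks above input at equal depth depended on the depth assumed: at a ChIP depth set 2 times above the input it was 0 (5 with an unadjusted p under 0.05), with DESeq2 at size factors of 1 it was 5, and of the 4 peaks with at least 10 input counts 4 passed. With the ChIP libraries scaled to each other, set 2 times shallower, or fitted robustly, 12 passed, the Cry1 promoter peak included, whose adjusted p ranged from 5.03e-06 to 0.204 over the alternatives. Counts above and below the typical peak were 0 in each alternative run, but DESeq2 gave an adjusted p for only 1 of the 12 peaks and the input minimum left 4. The difference in median log2 ratio, 0.05, changed sign with several settings: it was -0.13 with 5 added to each count, -0.23 among peaks with at least 10 input counts, -0.21 for peaks with a clock gene as nearest, and -0.11 to 0.15 when each ChIP replicate was left out in turn. A window of 100 kb gave 26 peaks in place of 12, and a TSS proximal class of 1 kb on either side left 0 gene body peaks in place of 3. Over the 12 peaks singly, the deeper setting ended 11 calls and DESeq2 ended 7 and added 1. No log2 ratio of a single peak changed sign. The cause of these changes was not tested beyond their construction. Input counts of 2 to 14 limit the precision of every ratio.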
